A study of Homo sapiens with 12 samples.

Results

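The full distance between an activator and a blocker of the aryl hydrocarbon receptor (AHR) was measured in DLD1, an established cell line from a human colon adenocarcinoma. The 3 libraries titled TCDD were set against the 3 titled CH, 6 of the 12 libraries sequenced. TCDD, a chlorinated dioxin, is the reference AHR agonist, and CH is CH223191, a synthetic AHR antagonist. Both compounds were given for 1 h at 10 µM, each alone. The 3 libraries titled DMSO, the solvent, also at 1 h, served as the point between them, and 3 libraries with the tryptophan metabolite kynurenine (Kyn, 10 µM, 1 h) entered the fit and are shown for 8 genes. The titles and the treatment field name CH223191, whereas the protocol text lists the other 3 conditions only. DLD1 is a single line. No label states that replicates were grown apart, so p-values measure the spread between these libraries, which may be technical.

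AHR is a transcription factor held in the cytoplasm with HSP90 and PTGES3. On binding a ligand it enters the nucleus, pairs with ARNT and binds short response elements with the core GCGTG, from which it switches on xenobiotic metabolism genes such as CYP1A1 and the genes of its own inhibitors, AHRR and TIPARP. The gut epithelium meets AHR ligands from diet, microbes and tryptophan breakdown. An antagonist occupies the receptor without activating it, so a gene may move one way with an agonist and the other way with an antagonist, with one of them only, or with both alike.

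Counted reads per library ranged from 22834076 to 24726740 with TCDD, from 21397703 to 27783424 with CH223191 and from 26403109 to 27579937 with DMSO. Reads aligned to more than 1 place made up 3.27 to 3.91% with TCDD, 2.66 to 3.02% with CH223191 and 2.63 to 3.07% with DMSO, so the TCDD libraries stood above the other groups on this measure. Its part in the results was not tested. Summed markers of colon epithelium lay between 8867 and 9048 CPM (counted reads scaled to a common library total) with TCDD. They lay between 9113 and 9641 CPM with DMSO and between 9319 and 9566 CPM with CH223191, so the TCDD libraries stood lowest. Of 8 tested colon markers, 2 were higher with TCDD and 4 with CH223191, against 19.0% and 18.1% of all tested genes. Markers of fibroblasts, immune and endothelial cells summed to at most 1.30, 17.0 and 3.13 CPM in all 9 libraries, and 0 of their 10 tested members were called. Ribosomal RNA gene RNA18S5 reached 98.8 CPM in DMSO library 1 against 0.414 to 11.3 CPM in the other 8. In such bulk RNA, fewer cells with a transcript and less transcript per cell cannot be told apart.

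Between TCDD and CH223191, 5052 of 13619 tested genes differed (37.1%; edgeR quasi-likelihood test, Benjamini-Hochberg adjusted p under 0.05). Of these, 2589 were higher with TCDD (19.0%) and 2463 were higher with CH223191 (18.1%). Most differences were small, with a median log2 difference among called genes of 0.22 in the first direction and -0.27 in the second. At least 1.5-fold, 253 genes were higher with TCDD (1.86%) and 414 with CH223191 (3.04%). The median over all tested genes was -0.0028. Single libraries did not overlap between the compounds in 23.8% of tested genes with TCDD higher and in 23.5% with CH223191 higher.

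The DMSO libraries divided these genes. A gene was counted as graded when TCDD differed from CH223191 and both steps, TCDD against DMSO and DMSO against CH223191, passed the same test in the same direction. That held for 296 genes (2.17%): 200 fell from TCDD through DMSO to CH223191 (1.47%) and 96 rose (0.705%). Without DMSO library 1 the falling count was 132. The rising count was 52, 56 and 54 without DMSO library 1, DMSO library 3 and TCDD library 3. Judged by the libraries alone, with the 3 groups in order and no overlap at either step, 748 called genes were graded (5.49%), 436 falling (3.20%) and 312 rising (2.29%), and 273 of the 296 were among them. Both steps use the same DMSO libraries. On their own, the TCDD step passed in 805 genes upward (5.91%) and 794 downward (5.83%), and the CH223191 step in 2171 upward (15.9%) and 2297 downward (16.9%).

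The remaining called genes split by which step passed. Among those higher with TCDD, 1330 had only the CH223191 step and 359 only the TCDD step, and in 620 neither step passed by itself. Among those higher with CH223191 the same counts were 1431, 222 and 684. In the other 110, both steps passed with DMSO below or above both compounds. In the plot of the steps, graded genes fill the lower right and upper left corners, and genes with a single step lie along an axis.

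**Figure D1:**
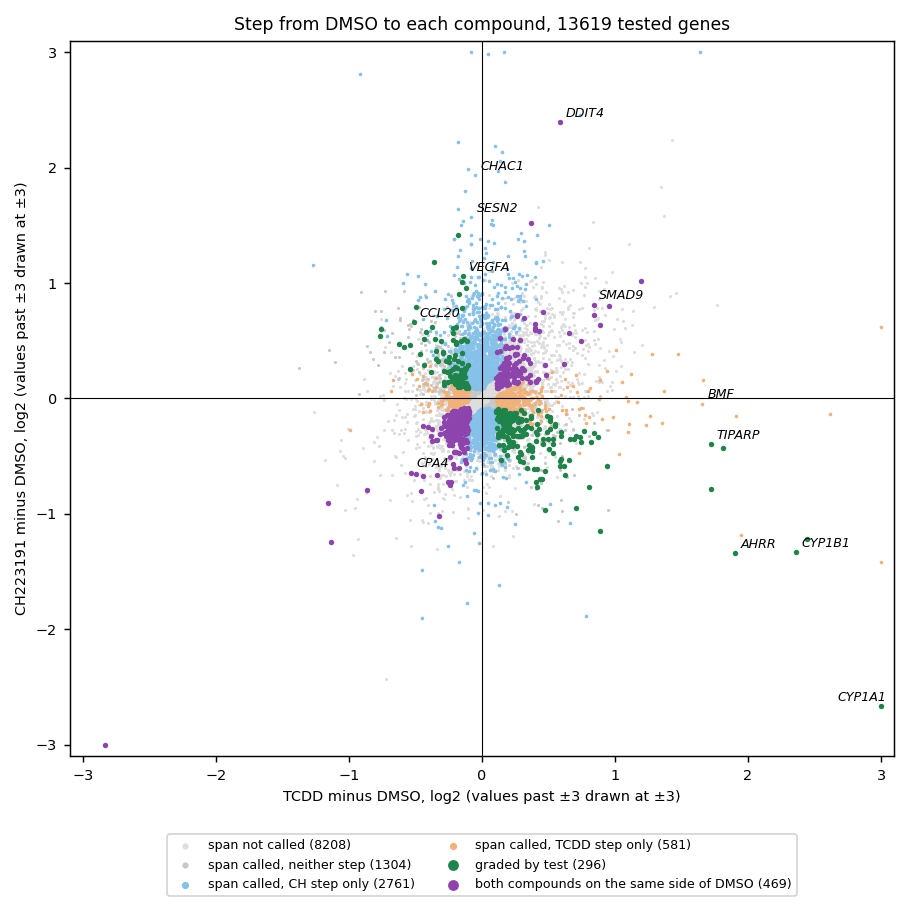
Log2 difference from DMSO with TCDD (horizontal axis) and with CH223191 (vertical axis), 1 point per tested gene, coloured by class, with values past 3 drawn at the edge. CYP1A1, CYP1B1, AHRR and TIPARP lie at the lower right (up with TCDD, down with CH223191), CHAC1 and SESN2 on the vertical axis (CH223191 only) and DDIT4 at the upper right (up with both).

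The 8 falling graded genes with the largest spans were taken from those graded by the libraries as well as by the test. Of these 8, 5 were in the list of AHR targets. The 250 bases before the start of 3 of them are given first, since all 3 carry the AHR core in either orientation (GCGTG or CACGC, in capitals). They come from RefSeq, assembly GRCh38.p14, 5′ to 3′ on the gene's strand: CYP1A1 at chr15:74725529-74725778 (minus strand), AHRR at chr5:321464-321713 and TIPARP at chr3:156674340-156674589 (both plus strand).
CYP1A1: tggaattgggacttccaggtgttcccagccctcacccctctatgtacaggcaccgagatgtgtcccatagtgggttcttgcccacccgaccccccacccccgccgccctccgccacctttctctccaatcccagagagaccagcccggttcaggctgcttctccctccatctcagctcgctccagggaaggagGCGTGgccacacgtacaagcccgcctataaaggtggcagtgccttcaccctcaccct
AHRR: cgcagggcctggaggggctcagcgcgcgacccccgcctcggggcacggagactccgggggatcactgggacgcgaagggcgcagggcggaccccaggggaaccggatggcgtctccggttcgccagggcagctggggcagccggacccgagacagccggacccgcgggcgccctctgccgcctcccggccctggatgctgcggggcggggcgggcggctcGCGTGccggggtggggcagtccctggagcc
TIPARP: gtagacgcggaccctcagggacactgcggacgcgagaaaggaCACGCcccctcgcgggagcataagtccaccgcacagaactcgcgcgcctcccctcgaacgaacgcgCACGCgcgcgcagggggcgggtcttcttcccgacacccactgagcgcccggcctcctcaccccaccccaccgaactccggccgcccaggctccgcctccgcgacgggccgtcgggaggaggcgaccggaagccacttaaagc
The core begins at position -57 from the start in CYP1A1, at -30 in AHRR, and at -208 and -142 in TIPARP. In AHRR it sits inside the longer element TNGCGTG, as TCGCGTG from -32. The core is common: it occurred in 50.6% of the 10047 tested genes with a 300-base window (250 before and 50 after the start, both strands) and in 45.5% of the 165 falling graded genes. TNGCGTG, which contains it, occurred in 7.26% and 10.3%. Over all 35116 windows of this length the shares were 36.5% and 5.51%. A match is a run of letters, not a measured binding site.

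CYP1A1, the monooxygenase that is the standard readout of AHR activity, lies at chr15:74719542-74725528 and had the largest span of the genes named here. Its levels were 435, 438 and 409 CPM with TCDD, 3.05, 3.29 and 3.30 CPM with DMSO, and 0.396, 0.428 and 0.736 CPM with CH223191. The 3 groups did not overlap and lay in the order TCDD, DMSO, CH223191. The log2 span was 9.72 ± 0.08 (SE), an 842-fold difference (edgeR adjusted p = 1.2e-42), made of 7.05 ± 0.06 from DMSO up to TCDD and -2.67 ± 0.20 from DMSO down to CH223191 (adjusted p = 9.0e-13). The CH223191 level rests on 11, 12 and 16 reads. DMSO thus stood at 0.27 of the log2 distance, where 0 is the CH223191 level and 1 the TCDD level.

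CYP1B1, a related monooxygenase that also hydroxylates estrogens, read 650, 648 and 639 CPM with TCDD, 127, 124 and 127 with DMSO, and 46.6, 52.4 and 50.7 with CH223191. The groups were again separate and in order, with a log2 span of 3.69 ± 0.04 (12.9-fold, edgeR adjusted p = 3.9e-39) and DMSO at 0.36. Whether HTSeq used strand is not given in the sources used here, so reads of CYP1B1 and of transcripts on the opposite strand cannot be told apart. AHRR, the repressor that competes with AHR for ARNT, read 22, 25 and 23.1 CPM with TCDD, 6.06, 6.65 and 6.02 with DMSO, and 2.23, 2.89 and 2.21 with CH223191. Its lowest TCDD library was above 3 times its highest DMSO library, and its span was 3.24 ± 0.11 (9.47-fold, edgeR adjusted p = 9.2e-24). TIPARP, which ADP-ribosylates AHR and limits its signal, read 151, 139 and 145 CPM with TCDD, 44.2, 44.5 and 43.3 with DMSO, and 32.2, 34.5 and 33.5 with CH223191. Here the CH223191 step was short, -0.40 ± 0.05 against 1.72 ± 0.04 for TCDD, with DMSO at 0.19 of the way (edgeR adjusted p for the CH223191 step = 4.6e-08).

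ALDH1A3, which makes retinoic acid, read 31.8, 29.6 and 31.0 CPM with TCDD, 8.85, 9.47 and 9.69 with DMSO, and 5.72, 4.71 and 5.93 with CH223191. ADGRF1, an adhesion G protein-coupled receptor, read 17.8, 17.9 and 19.1 CPM with TCDD, 2.82, 3.36 and 3.85 with DMSO, and 1.62, 1.57 and 1.06 with CH223191. Both were in order without overlap, with log2 spans of 2.51 ± 0.08 and 3.66 ± 0.13. ITPR1, the calcium channel opened by inositol trisphosphate, had a span of 2.24 ± 0.12, and its CH223191 step of -0.43 ± 0.15 (edgeR adjusted p = 0.021) was lost without DMSO library 1, DMSO library 3 or CH223191 library 1. FGFBP1, a carrier that releases fibroblast growth factors from the matrix, differed from the rest of these in shape: 68.6, 68.8 and 62.5 CPM with TCDD, 34.8, 34.9 and 38.3 with DMSO, and 16.3, 15.8 and 16.6 with CH223191. Its CH223191 step (-1.15 ± 0.06) was longer than its TCDD step (0.89 ± 0.05; edgeR adjusted p for DMSO against the midpoint = 0.047), and DMSO stood at 0.56. The Kyn libraries lay above every DMSO library and below every TCDD library for CYP1A1, ADGRF1, ALDH1A3, ITPR1 and FGFBP1. For CYP1B1, AHRR and TIPARP they lay below every DMSO library and above every CH223191 library.

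**Figure D2:**
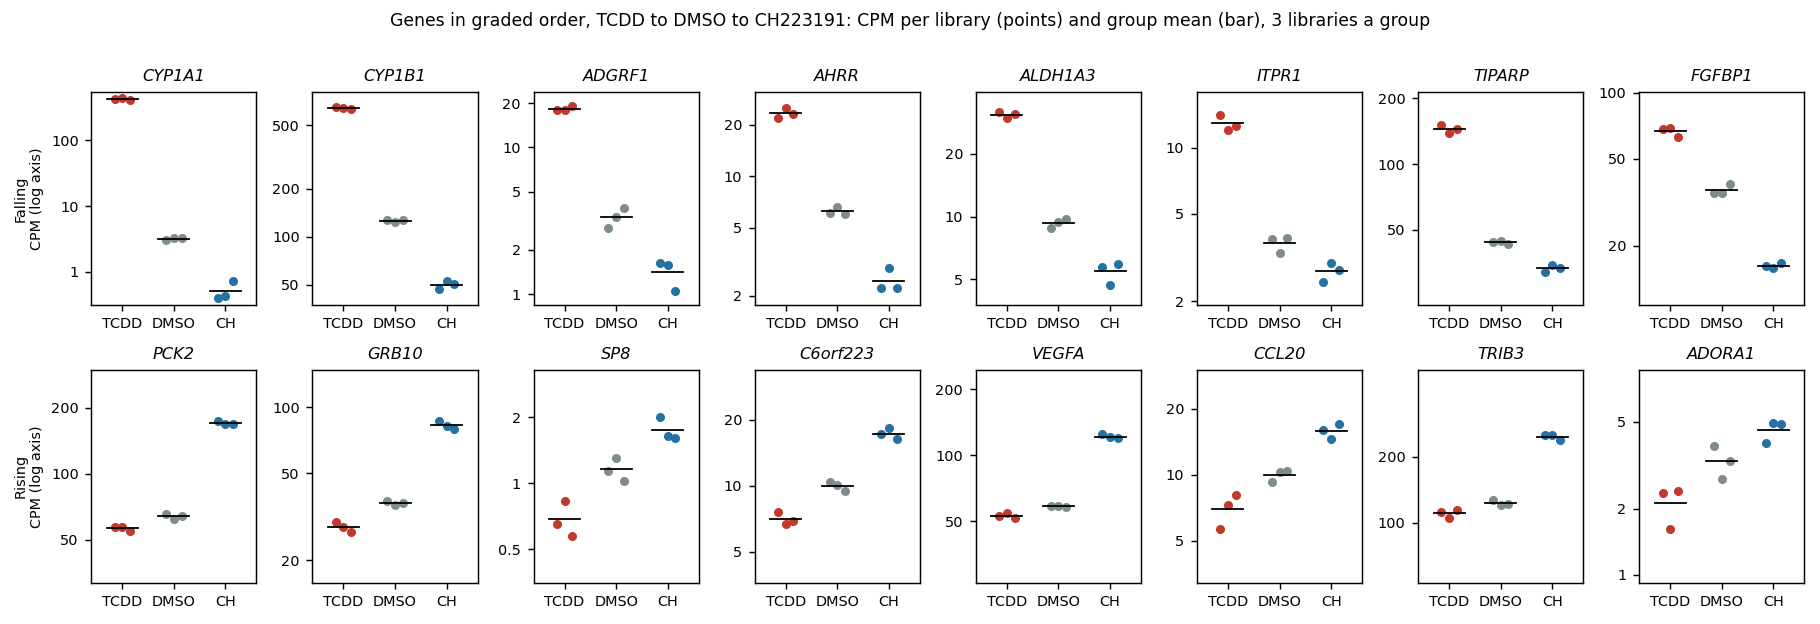
CPM (log axis, a scale of its own in each panel) of the 8 falling and 8 rising graded genes with the largest spans, with a point per library and a bar at the mean of 3 libraries. In the falling genes the TCDD points sit highest and the CH223191 points lowest, with DMSO nearer CH223191 in all but FGFBP1, and in the rising genes PCK2, VEGFA and TRIB3 the DMSO points sit close to TCDD.

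Of 19 tested AHR targets in a list of 22, 14 were higher with TCDD and 4 with CH223191, with a median log2 span of 1.15, and 8 were graded falling and 1 rising. By step, 16 of the 19 rose with TCDD and 8 fell with CH223191. All tested genes gave 19.0% and 18.1% in the directions of the span, and 1.47% graded falling and 0.705% rising. By step, 5.91% of them rose with TCDD and 16.9% fell with CH223191. The 4 higher with CH223191, which became 2 without CH223191 library 1, were NQO1, SLC7A5, the epithelial monooxygenase CYP2S1 and PTGS2, the inducible cyclooxygenase. CYP1A2, the liver enzyme beside CYP1A1 and similar to it in sequence, so that reads may be lost or misplaced between them, had 50, 56 and 69 reads with TCDD, 6, 15 and 11 with DMSO, and 12, 15 and 1 with CH223191. Its TCDD step passed (2.61 ± 0.30, edgeR adjusted p = 6.1e-08), and its CH223191 step was -0.13 ± 0.44 (adjusted p = 0.85), so a fall was not detectable at this depth. BMF, a BH3-only cell death activator, read 3.50, 3.80 and 3.78 CPM with TCDD against 1.08 to 1.26 with DMSO and 1.10 to 1.18 with CH223191, so the 2 lower groups overlapped and the TCDD step of 1.65 ± 0.17 made up its span.

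Some AHR targets were placed evenly or outside. UGT1A6, a glucuronosyltransferase that shares exons with its neighbours, read 3.21, 2.92 and 2.59 CPM, then 1.94, 2.10 and 1.76, then 1.15, 1.5 and 1.2 from TCDD to DMSO to CH223191. Its steps were 0.59 ± 0.17 and -0.59 ± 0.20 (edgeR adjusted p = 0.020 and 0.021), and its graded call was lost without each single DMSO library and in 4 other settings. NQO1, a quinone reductase driven by both AHR and NRF2, was lowest with DMSO: 214, 213 and 208 CPM with TCDD, 189, 185 and 189 with DMSO, and 225, 232 and 230 with CH223191. SLC7A5, a large neutral amino acid transporter, had the same shape, with steps of 0.16 ± 0.04 and 0.30 ± 0.04 above DMSO, and TCDD below CH223191 by 0.13 on the log2 scale (edgeR adjusted p = 0.0028; the span was not called without CH223191 library 1).

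The receptor machinery had small spans. AHR itself read 176 to 194 CPM with TCDD, 188 to 203 with DMSO and 190 to 198 with CH223191, and its span of -0.09 ± 0.04 did not pass (edgeR adjusted p = 0.084), although it did with library totals alone, without TCDD library 3 (-0.14), without Kyn library 1 and with GC and length trends removed (-0.14). Of 20 tested genes of the receptor complex and its cofactors, 6 were higher with TCDD and 4 with CH223191, where all tested genes gave 19.0% and 18.1%, and 0 were graded, against 2.17% of all tested genes. Their median log2 span was 0.06. The 6 became 3 without TCDD library 3, and the 4 became 2 without TCDD library 2 or CH223191 library 1. ARNT2, a relative of ARNT, was 0.28 higher with CH223191 on the log2 scale, and the coactivator EP300 was 0.22 ± 0.05 higher with TCDD.

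Of 10 tested EGF receptor family members and ligands, 2 were graded falling and 0 rising, against 1.47% and 0.705% of all tested genes. EREG, an EGF receptor ligand and a listed AHR target, read 296, 278 and 300 CPM with TCDD, 206, 215 and 218 with DMSO, and 134, 134 and 124 with CH223191. TGFA, another such ligand, read 175 to 182, 155 to 165 and 141 to 144 CPM in the same order, and PIM1, a survival kinase, 43.9 to 45.3, 28.5 to 30.8 and 19.1 to 21.6. None of the 3 had overlapping groups, and their log2 spans were 1.15 ± 0.04, 0.32 ± 0.04 and 1.12 ± 0.05. AREG, a ligand of the same receptor, passed the CH223191 step only (TCDD step 0.09 ± 0.05, CH223191 step -0.63 ± 0.05). IER3, an early response survival gene, read 177 to 181, 136 to 139 and 98.6 to 101 CPM, and LIF, a cytokine of the interleukin 6 family, 59.6 to 67.1, 47.3 to 48.7 and 34.4 to 38.1. JAG2, a Notch ligand, BMP4, a bone morphogenetic protein, and LGR5, the intestinal stem cell receptor, had log2 spans of 0.68, 0.48 and 0.47. IER3, LIF, JAG2, BMP4 and LGR5 were likewise graded both by the test and by the libraries. The lists of the last 3 were mixed. Of 10 tested Notch genes, 2 were higher with TCDD and 4 with CH223191. The counts were 3 and 6 of 14 TGF-beta, BMP and ID genes, and 5 and 3 of 16 Wnt target and stem cell genes. All tested genes gave 19.0% and 18.1%.

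In several falling genes DMSO lay at the middle. MB21D2 read 18.3 to 19.5, 12.1 to 12.6 and 6.92 to 8.83 CPM, and ANKRD13C 84.5 to 90.9, 55.7 to 60.4 and 38.0 to 41.8, with DMSO at 0.51 and 0.48. CDX2, the transcription factor that sets intestinal identity, read 160, 168 and 159 CPM with TCDD, 123, 120 and 124 with DMSO, and 95.1, 96.1 and 92.8 with CH223191. Its steps of 0.41 ± 0.04 and -0.37 ± 0.04 did not differ in size by the test (edgeR adjusted p for DMSO against the midpoint = 0.74), a result bound to the choice of gene. CDX2 is 1 of 2 colon markers, of 8 tested, that were higher with TCDD. Another 4, among them CDH1 (log2 span -0.12), were higher with CH223191. LHX4, a LIM homeodomain factor, and SRGAP3, a GTPase-activating protein, both stood at 0.49, with spans of 1.57 ± 0.15 and 1.20 ± 0.13. TERT, the catalytic subunit of telomerase, had a span of 1.65 ± 0.21 with DMSO at 0.57 and between 0.612 and 3.0 CPM in the 9 libraries, and its graded call was lost with DESeq2 and without DMSO library 1 or TCDD library 3. Over all 200 falling genes the median DMSO position was 0.49 and the median span 0.52. DMSO differed from the midpoint in 39 of them, nearer CH223191 in 23 and nearer TCDD in 16.

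The 96 rising genes, lowest with TCDD and highest with CH223191, had a median log2 span of -0.47. PCK2, the mitochondrial enzyme that makes phosphoenolpyruvate, read 57.2, 57.5 and 54.7 CPM with TCDD, 65.8, 62.1 and 64.4 with DMSO, and 173, 169 and 169 with CH223191. The groups were separate, but the TCDD step of -0.18 ± 0.04 was small beside the CH223191 step of 1.41 ± 0.04, and it was no longer called once trends with GC content and transcript length were removed. GRB10, an adaptor that dampens insulin receptor signalling, read 30.03, 28.3 and 27 CPM, then 37.4, 35.9 and 36.4, then 86.4, 82.1 and 79.5 CPM, with steps of -0.36 ± 0.05 and 1.18 ± 0.05. VEGFA, the angiogenic factor, read 51.4 to 54.3, 58.2 to 58.6 and 119 to 125 CPM, and TRIB3, a pseudokinase of the stress response, 105 to 114, 121 to 126 and 238 to 251. Their TCDD steps of -0.14 ± 0.04 and -0.15 ± 0.04 were lost without 1 of several libraries (DMSO 1 or 3 or TCDD 1 or 3 for VEGFA, TCDD 2 for TRIB3), and that of TRIB3 also once GC content and length trends were removed.

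Other rising genes were spread more evenly. CCL20, a chemokine that draws CCR6-bearing lymphocytes to the gut, read 5.66, 7.24 and 8.09 CPM with TCDD, 9.30, 10.2 and 10.4 with DMSO, and 16.0, 14.6 and 17.1 with CH223191. The highest TCDD library stayed below the lowest DMSO library, and the steps were -0.51 ± 0.10 and 0.66 ± 0.09 (edgeR adjusted p = 0.0006 and 3.0e-07). CXCL2, a neutrophil chemokine, had steps of -0.44 ± 0.09 and 0.51 ± 0.08, and its relative CXCL1 steps of -0.54 ± 0.06 and 0.25 ± 0.06. SOCS2, a cytokine feedback inhibitor, read 9.51 to 10.3, 14.1 to 15.2 and 19.6 to 21 CPM, with DMSO at 0.43. SNPH, a mitochondrial anchor, SLC29A3, a nucleoside transporter, and C6orf223 held their graded call in every setting tried. SP8, a zinc finger factor at 0.575 to 2.01 CPM, held it in 4 of 19 settings, and ADORA1, an adenosine receptor, in 15 of 19. CXCL2, SNPH and SLC29A3 were chosen for DMSO nearest the middle, as were LINC01547, CCDC61 and AUTS2. The last 3 had DMSO at 0.50, 0.49 and 0.46, and each lost the graded call in 1 to 3 settings. Of 23 tested NF-kB and inflammatory genes, 12 were higher with CH223191 and 3 with TCDD, 4 were graded rising (CCL20, CXCL1, CXCL2 and CXCL3) and 1 falling (LIF), and the median span was -0.12. Over all tested genes, 18.1% were higher with CH223191 and 19.0% with TCDD, and 0.705% were graded rising and 1.47% falling. By step, 10 of the 23 fell and 2 rose with TCDD, and 4 fell and 8 rose with CH223191. Over all tested genes, 5.83% fell and 5.91% rose with TCDD, and 16.9% fell and 15.9% rose with CH223191.

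The 12 genes furthest above TCDD with CH223191, leaving out any averaging under 1 CPM, were not graded. The 250 bases before the start of CHAC1, which is among them (chr15:40953221-40953470, plus strand), and of ASNS, 2.82-fold higher with CH223191 and outside the 12 (chr7:97872409-97872658, minus strand), are shown because they hold a C/EBP-ATF response element, the site read by ATF4, here searched as TGATGNAA on both strands and given in capitals.
CHAC1: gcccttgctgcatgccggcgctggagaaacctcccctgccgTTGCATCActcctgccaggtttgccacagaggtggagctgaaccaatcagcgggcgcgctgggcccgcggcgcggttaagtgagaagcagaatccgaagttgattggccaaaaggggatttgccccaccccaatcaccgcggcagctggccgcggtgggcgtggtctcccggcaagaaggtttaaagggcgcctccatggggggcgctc
ASNS: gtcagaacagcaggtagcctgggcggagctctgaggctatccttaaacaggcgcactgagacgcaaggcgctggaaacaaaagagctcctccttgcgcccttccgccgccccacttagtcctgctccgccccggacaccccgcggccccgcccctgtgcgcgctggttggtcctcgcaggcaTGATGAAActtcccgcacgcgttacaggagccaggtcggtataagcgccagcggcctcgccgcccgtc
The match begins at -209 in CHAC1 and at -68 in ASNS. It occurred in 1.58% of the 10047 windows of tested genes, in 3.62% of all windows, in 11% of the 173 windows of genes at least 1.5-fold higher with CH223191 through the CH223191 step alone (19), and in 0 of the 165 of falling graded genes. The same search found it in 2 of 11 of the largest CH223191-high genes with a window, CHAC1 and S100P. Both printed stretches also hold the AHR core, left in lower case, from -51 in CHAC1 and from -53 in ASNS. The AHR core occurred in 49.7% of the 173 windows, against 50.6% of the windows of tested genes. Here too, a match is not a measured binding site.

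CHAC1, which breaks down glutathione and is a marker of ATF4 activity, read 14.3, 13.8 and 12.2 CPM with TCDD, 14.6, 14 and 13.1 with DMSO, and 53.3, 53.8 and 52.7 with CH223191. TCDD and DMSO overlapped, and all 3 CH223191 libraries were above 3 times either. The span was -1.99 ± 0.06 (3.97-fold, edgeR adjusted p = 2.7e-25), and the TCDD step was -0.05 ± 0.07 (adjusted p = 0.71), so DMSO stood at 0.97. ASNS, asparagine synthetase, read 136, 133 and 137 CPM with TCDD, 146, 140 and 143 with DMSO, and 383, 387 and 375 with CH223191. Its TCDD libraries all lay below its DMSO libraries, but that step of -0.08 ± 0.04 did not pass (edgeR adjusted p = 0.13), and ASNS was graded by library and not by test.

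SESN2, a leucine sensor that restrains mTORC1, read 21.2, 20.7 and 21.3, then 23.6, 23.5 and 19.8, then 67.5, 69.4 and 61.7 CPM from TCDD to DMSO to CH223191. ADM2, a peptide hormone, read 1.38 to 1.81, 1.45 to 1.76 and 11.9 to 13.7 CPM, the largest span among the named genes higher with CH223191 (7.67-fold). SLC6A9, a glycine transporter, read 7.16 to 8.67, 8.40 to 9.83 and 42.2 to 43.8 CPM. In all 3 the TCDD and DMSO libraries overlapped and the CH223191 libraries stood alone, with log2 spans of -1.65 ± 0.06, -2.94 ± 0.13 and -2.41 ± 0.07. ULBP1, a ligand of the natural killer receptor NKG2D, NUPR1, a stress-induced chromatin protein, VLDLR, a lipoprotein receptor, and TSC22D3, the glucocorticoid-induced leucine zipper, were 4.25, 4.25, 3.80 and 3.62-fold higher with CH223191 than with TCDD. Their DMSO positions were 0.95 to 1.07. SYTL5, S100P, MKX and ATP8B2 had the same pattern at 3.22 to 3.96-fold.

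The integrated stress response is a programme in which ATF4 raises amino acid supply genes. Of its 22 tested list members, 14 were higher with CH223191 and 3 with TCDD (GDF15, PPP1R15A and EIF2AK3), the median span was -0.92, and the median step was 0.82 with CH223191 and 0.00 with TCDD. By test, 2 of the 22 were graded falling and 2 rising. By step, 14 rose and 2 fell with CH223191, and 3 rose and 2 fell with TCDD. Over all tested genes, 18.1% were higher with CH223191, 19.0% were higher with TCDD and 2.17% were graded (1.47% falling, 0.705% rising). By step, 15.9% of them rose and 16.9% fell with CH223191, and 5.91% rose and 5.83% fell with TCDD. ATF4 mRNA read 270, 268 and 260 CPM with TCDD, 284, 280 and 260 with DMSO, and 534, 514 and 521 with CH223191. DDIT3 (CHOP), a cell death factor downstream, and ATF3, its partner, were 2.02 and 1.82-fold higher with CH223191 than with TCDD. The steps they took with TCDD were 0.01 ± 0.12 and -0.17 ± 0.14. The supply lists moved the same way. Of 20 tested cytosolic tRNA synthetases, 13 were higher with CH223191 and 2 with TCDD, or 1 without TCDD library 1 or 3 (median -0.32), led by GARS, CARS, SARS and AARS, at 1.73 to 2.12-fold, and 0 were graded. Of 19 serine, one-carbon, asparagine and proline synthesis genes, 14 were higher with CH223191 and 2 with TCDD (median -0.45). In 4 of them, PHGDH, SHMT2, MTHFD1L and GPT2, the TCDD step passed too, but in 1, 1, 2 and 1 without DMSO library 1, DMSO library 3, TCDD library 1 and TCDD library 3. PHGDH, the first enzyme of serine synthesis, read 234 to 247, 261 to 279 and 500 to 513 CPM, whereas PSAT1, the next enzyme, had a TCDD step of -0.08 ± 0.03 (edgeR adjusted p = 0.083). MTHFD2, a mitochondrial folate enzyme, had one of -0.02 ± 0.03. Of 21 amino acid transporters, 12 were higher with CH223191 and 5 with TCDD (median -0.26). SLC1A5, a glutamine carrier, was graded (steps -0.20 ± 0.03 and 0.49 ± 0.03), SLC1A4 was not by the test (TCDD step -0.10 ± 0.04, edgeR adjusted p = 0.063), and SLC7A11, the cystine importer, lay above DMSO with both.

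The position of DMSO differed between the directions. Among the 253 genes at least 1.5-fold higher with TCDD, its median was 0.49 (quartiles 0.30 and 0.69), and 84 were graded, 52 had the CH223191 step alone, 47 the TCDD step alone and 69 neither. Among the 414 at least 1.5-fold higher with CH223191, the median was 0.83 (quartiles 0.59 and 0.98), and 39 were graded, 273 had the CH223191 step alone and 7 the TCDD step alone. Tested gene by gene, DMSO was off the midpoint toward TCDD in 1271 called genes (9.33%) and toward CH223191 in 220 (1.62%). The second count was 122, 139, 141 and 144 without DMSO library 1, DMSO library 3, TCDD library 3 and CH223191 library 2. Of the 253 genes 34 lay nearer TCDD and 37 nearer CH223191, and of the 414 genes 148 and 2.

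**Figure D3:**
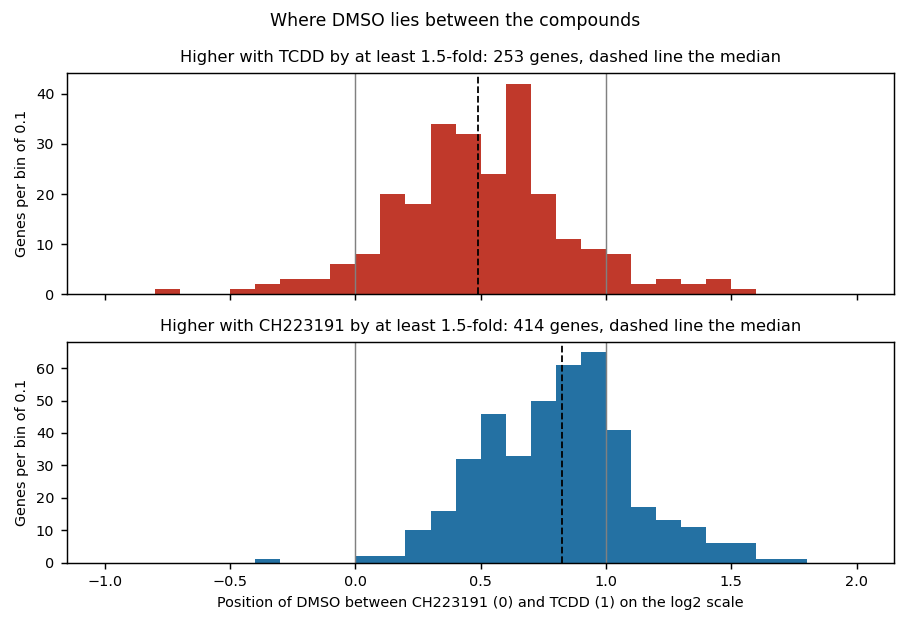
Histogram of the position of DMSO on the log2 scale between CH223191 (0) and TCDD (1), for the 253 genes at least 1.5-fold higher with TCDD (top) and the 414 at least 1.5-fold higher with CH223191 (bottom), with a dashed line at the median. The top panel is centred near the middle (median 0.49), and the bottom panel is piled up toward the TCDD end (median 0.83).

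DMSO lay outside the 2 compounds, with both steps passing in the same direction away from it, in 469 genes (3.44%): 144 with both compounds above DMSO (1.06%) and 325 with both below (2.39%). Scaled by library totals alone the split was 192 and 235. The first count fell to 60, 76 and 64 without DMSO library 1, DMSO library 3 and TCDD library 3, and to 84 with GC and length trends removed. The second fell to 138, 175, 214 and 150 without DMSO library 1, DMSO library 3, TCDD library 1 and TCDD library 3. These counts share the DMSO libraries between their steps. In 359 of the 469, the span between TCDD and CH223191 did not pass the test.

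DDIT4 (REDD1), an mTORC1 inhibitor induced by stress, rose with both compounds and also differed between them. It read 75.8, 80.5 and 75.4 CPM with TCDD, 52.2, 50.1 and 52.2 with DMSO, and 282, 266 and 262 with CH223191. All 3 groups were separate, with steps above DMSO of 0.58 ± 0.04 and 2.39 ± 0.04 (edgeR adjusted p = 4.7e-12 and 6.9e-32). PROX1, a homeobox factor of intestinal tumours and lymphatics, rose about equally: 16.4, 16.5 and 15.4 CPM with TCDD, 9.46, 11.6 and 9.65 with DMSO, and 15.7, 14.7 and 15.2 with CH223191. Its steps were 0.65 ± 0.08 and 0.57 ± 0.08, and its span of 0.08 ± 0.08 did not pass. SMAD9, XYLT1, PLCH1 and MYZAP showed the same shape at 0.686 to 2.47 CPM, and each lost the call under DESeq2. SLC7A11 read 42.2 to 45.5, 32.2 to 35.2 and 94.8 to 101 CPM, and HERPUD1, of endoplasmic reticulum protein disposal, 81.1 to 84.7, 70.0 to 76.3 and 97 to 107.

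CPA4, a carboxypeptidase, was lower with both compounds: 9.72, 7.52 and 9.32 CPM with DMSO, 5.82, 6.46 and 6.08 with TCDD, and 6.73, 5.28 and 4.83 with CH223191. NRP2, a semaphorin and VEGF receptor, read 6.15 to 6.82 CPM with DMSO, 4.23 to 5.01 with TCDD and 3.81 to 4.35 with CH223191, and HEG1, an endothelial and epithelial junction receptor, 19.8 to 21.5, 14.1 to 18.0 and 15.4 to 16.9. No DMSO library overlapped either compound in these 3 genes, as the rule for naming them required, and their spans (0.11, 0.16 and -0.01) did not pass. KIF17 and SERTAD4 lay below DMSO as well, but each lost the call in 5 or more settings.

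**Figure D4:**
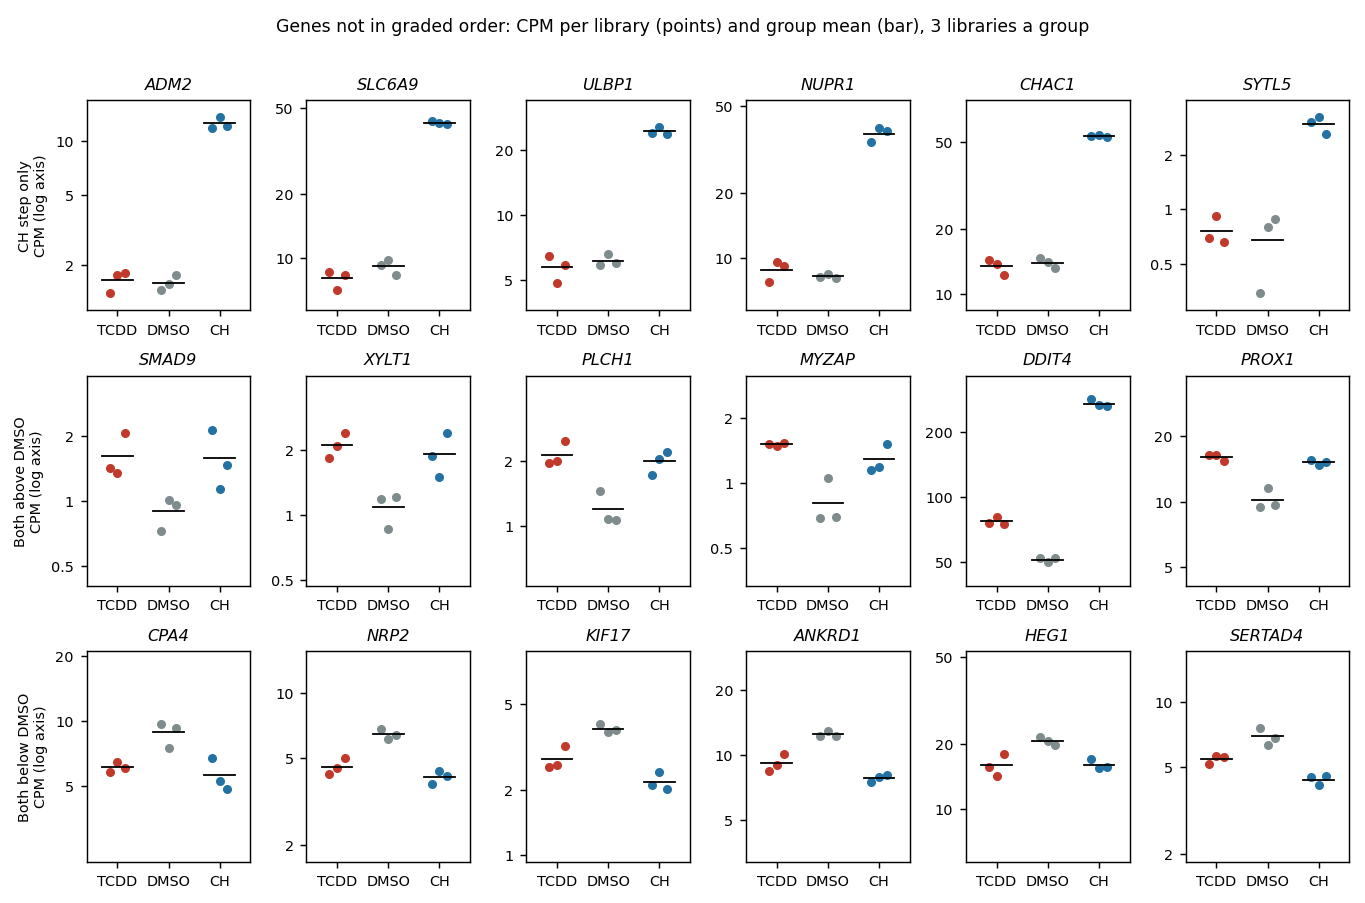
CPM (log axis, a scale of its own in each panel) of genes that were not graded, with a point per library and a bar at the mean of 3 libraries. In the top row the TCDD and DMSO points share a level and CH223191 stands above, in the middle row DMSO is lowest, and in the bottom row DMSO is highest.

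YAP and TEAD, the effectors of the Hippo pathway, drive a set of growth and matrix genes. Of 13 tested, 3 lay below DMSO with both compounds (2.39% of all tested genes) and 1, AJUBA, above (1.06%). Between the compounds, 6 were higher with TCDD and 0 with CH223191, against 19.0% and 18.1% of all tested genes. By step, 8 fell and 1 rose with CH223191, and 4 fell and 2 rose with TCDD, where 16.9% of all tested genes fell with CH223191 and 5.83% with TCDD. TEAD1, one of the factors themselves, was graded falling (steps 0.15 and -0.18), a call lost without DMSO library 1, DMSO library 3 or TCDD library 3 and with GC and length trends removed. ANKRD1, a nuclear target, read 12.2, 12.9 and 12.3 CPM with DMSO, 8.42, 8.94 and 10.1 with TCDD, and 7.52, 7.89 and 8.05 with CH223191. CTGF, a matricellular growth factor, read 54.7, 56.7 and 55.9 CPM with DMSO, 42.4, 44.9 and 46.7 with TCDD, and 30.3, 27.4 and 24.4 with CH223191. CYR61, its relative, differed: it read 136 to 146 CPM with TCDD and 140 to 147 with DMSO, which overlapped, and 57.3 to 63.0 with CH223191. For CTGF the steps were -0.32 ± 0.05 and -1.02 ± 0.05, and for CYR61 -0.02 ± 0.04 and -1.25 ± 0.04.

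Of 25 tested genes of the G1 to S transition and DNA replication, 15 were higher with TCDD than with CH223191 and 3 lower (median 0.17), 19 fell and 0 rose with CH223191, 6 fell with TCDD, and 0 were graded. For this and the next 3 lists, the shares over all tested genes were 19.0% higher with TCDD and 18.1% higher with CH223191. By step, 15.9% rose and 16.9% fell with CH223191 and 5.83% fell with TCDD. Graded genes made up 2.17% (1.47% falling, 0.705% rising). Of the 25, 4 lay below DMSO with both compounds and 0 above, against 2.39% and 1.06% of all tested genes. CDC25A, a phosphatase that starts S phase, read 86.4 to 89.3 CPM with TCDD, 93.8 to 96.5 with DMSO and 63.1 to 65.7 with CH223191. CDC25A thus lay below DMSO with both, a call lost in 5 of 20 settings. RRM2, a ribonucleotide reductase subunit, CCNE2, cyclin E2, and MCM10, a replication initiator, had TCDD steps of 0.06, -0.01 and -0.04 and CH223191 steps of -0.29, -0.45 and -0.43. Of 25 tested genes of mitosis and G2/M, 9 were higher with TCDD and 2 with CH223191, and 7 fell and 3 rose with CH223191 (median step -0.04). CCNB2, a mitotic cyclin, and CDC25C, a phosphatase that activates CDK1, were the 2, with CH223191 steps of 0.25 and 0.45. Among 18 cytosolic heat shock genes 14 were higher with TCDD, or 9 without TCDD library 1, and 1 with CH223191 (median 0.14). Of these HSPA8, CHORDC1 and HSPH1 were graded, with steps of 0.12 and -0.31, 0.13 and -0.30, and 0.14 and -0.14; 1 of the 3 was left without DMSO library 1, TCDD library 1 or TCDD library 3. Of 27 immediate-early genes 14 were higher with TCDD and 6 with CH223191, and 2 were graded falling (IER3 and FOSL2) and 2 rising (BTG1 and ZFP36L1), and the number graded became 2 without DMSO library 1. FOSL2, a Fos family member, had steps of 0.27 ± 0.04 and -0.17 ± 0.04, and BTG1, which restrains proliferation, of -0.21 and 0.35. FOSL1, a relative of FOSL2, had steps of 0.06 ± 0.05 with TCDD and -0.62 ± 0.05 with CH223191.

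**Figure D5:**
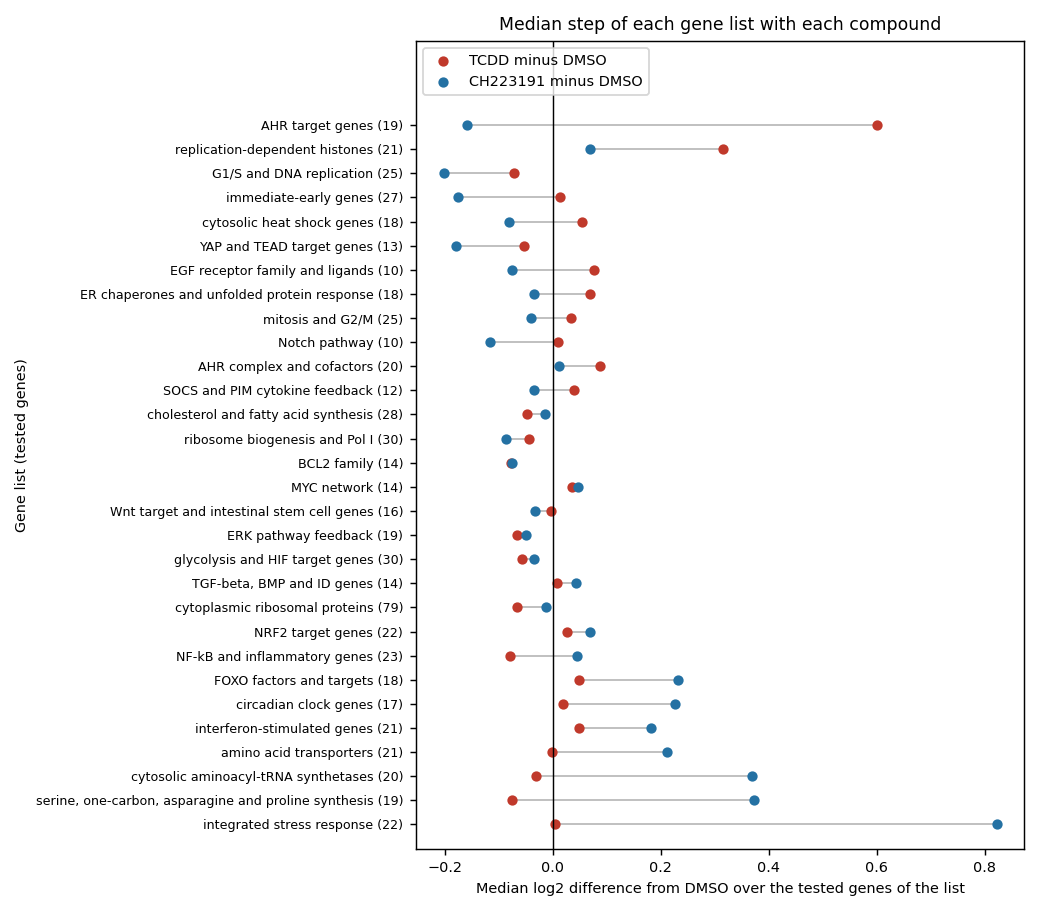
Median log2 difference from DMSO with TCDD (red) and with CH223191 (blue) over the tested genes of each list, with the number tested in brackets and lists ordered by their median span. The AHR targets are pulled apart with DMSO between, and the integrated stress response, tRNA synthetase and serine lists have TCDD at or near 0 and CH223191 at 0.37 to 0.82.

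MYC, a transcription factor of cell growth, was a case with the TCDD step alone. It read 149, 141 and 142 CPM with TCDD, 170, 161 and 164 with DMSO, and 178, 178 and 166 with CH223191. All TCDD libraries lay below the DMSO libraries, which overlapped CH223191, and the steps were -0.20 ± 0.04 and 0.08 ± 0.04 (edgeR adjusted p = 0.0004 and 0.099). CDKN1B, the cyclin-dependent kinase inhibitor p27, also passed the TCDD step alone, at 118 to 119, 98.6 to 99.5 and 97.4 to 101 CPM from TCDD to DMSO to CH223191. BIRC3, an inhibitor of apoptosis, read 41.7 to 43.8, 30.8 to 32.1 and 28.9 to 29.7 CPM. Its TCDD step of 0.44 passed and its CH223191 step of -0.11 did not (edgeR adjusted p = 0.086), but its CH223191 libraries all lay below its DMSO libraries, so BIRC3 was graded by library and not by test. MKI67, a proliferation marker of the mitosis list, read 773 to 871 CPM with TCDD, 650 to 694 with DMSO and 627 to 683 with CH223191, with a CH223191 step of -0.04 (edgeR adjusted p = 0.54). Of 21 tested replication-dependent histone genes, whose mRNAs are near-identical and mostly lack poly(A) tails, 5 were higher with TCDD and 0 with CH223191, against 19.0% and 18.1% of all tested genes. The 5 became 3 and 2 without TCDD library 1 and TCDD library 2, and HIST1H2BJ among them passed the CH223191 step (-0.61) and not the TCDD step (0.08). Levels were low. Group means from TCDD to DMSO to CH223191 were 2.85, 1.32 and 1.13 CPM for HIST2H2BF and 0.629, 0.256 and 0.225 CPM for HIST1H2BE. Of 79 cytoplasmic ribosomal protein genes 23 were higher with CH223191 and 1 with TCDD, by small amounts (median -0.06), and 0 were graded. Over all tested genes the shares were 18.1%, 19.0% and 2.17%. By step, 17 of the 79 fell and 0 rose with TCDD, and 2 fell and 2 rose with CH223191. Over all tested genes, 5.83% fell and 5.91% rose with TCDD, and 16.9% fell and 15.9% rose with CH223191. The 23 became 15, 10, 13 and 13 without TCDD library 1, TCDD library 3, CH223191 library 2 and CH223191 library 3, and the 1 became 0 without TCDD library 2.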

How the data were processed

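Poly(A) RNA of 12 DLD1 libraries was sequenced by the authors, and 9 of them (3 TCDD, 3 CH223191, 3 DMSO) are described here. Per the submitters' processing notes, reads were trimmed with Trim Galore, aligned to hg38 with STAR 2.7.2b, sorted with SAMtools 1.9 and counted with HTSeq; the protocol text names another STAR version and adds viral genomes. The deposited values are raw read counts for 26485 gene symbols. Summary counters such as reads in no gene were left out of library sizes.

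The analysis used edgeR 4.0.16 in R 4.3.3. After filterByExpr (minimum count 10) 13619 genes were left. TMM factors ranged from 0.988 to 1.02. One quasi-likelihood model without a block was fitted to all 12 libraries, and 4 contrasts were tested by the quasi-likelihood F test: TCDD against CH223191, each compound against DMSO, and DMSO against the mean of both compounds. Benjamini-Hochberg adjustment ran over all genes of a contrast, and an adjusted p under 0.05 was a call. CPM values use the scaled totals. Each ± beside a log2 value is a standard error from this model, the absolute log2 value divided by the square root of its F statistic. It draws on the spread estimated over all 12 libraries.

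The rule for named genes takes the 12 largest spans each way, the 8 largest graded spans each way, 6 genes each way outside DMSO and 6 each way nearest the middle among the 100 largest graded spans, all with a mean of at least 1 CPM. It adds 18 genes of AHR and stress signalling and up to 4 members of smallest p of each list. Genes taken for their span also had to show no overlap between TCDD and CH223191 libraries. Graded and middle genes also had to be graded by library, and outside genes to show no overlap of DMSO with either compound. For these genes such order or separation was a condition of choice and not a result. The genes, the lists and the comparison were chosen with earlier results of these data known. List members named beside a count of 5 or fewer, and RNA18S5, were chosen after their values were seen.

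Libraries of 1 group differed by more than counting noise (variance ratio 1.81 to 3.87 over 9 pairs), and replicate numbers did not pair the libraries (correlation of deviations -0.055 to 0.025 over 9 pairs with the same number). The fit was repeated with DESeq2 1.42.0, with RLE factors or library totals alone, without the filter or with one of 5 CPM in 3 libraries, with a replicate block, on fewer groups, and leaving out each library. Removal of GC and length trends (GENCODE 44 transcripts, 92.0% of tested genes matched) was added after seeing the data. The fit was tested on simulated counts first.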

Additional observations from a re-analysis of the deposited data

How the results depend on the processing

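Counts depended most on which libraries were left out. Leaving out 1 library at a time gave 2073 to 2688 genes higher with TCDD and 2026 to 2631 higher with CH223191, 132 to 236 falling and 52 to 120 rising by test, 408 to 613 falling and 311 to 458 rising by library, 60 to 188 with both compounds above DMSO, 138 to 404 with both below, and DMSO nearer TCDD in 879 to 1381 and nearer CH223191 in 122 to 317. The cause of these moves was not tested. With GC and length trends removed, 84 genes lay above DMSO (66 of the 144) and 227 below (133 of the 325), and 141 of the 200 falling and 52 of the 96 rising genes kept the call. Library totals alone gave 2199 higher with TCDD and 2840 higher with CH223191, and DESeq2 2305 and 2072. The replicate block, whose numbers share no stated origin, gave 2532 and 2416, with 193 falling and 89 rising by test, 134 above and 309 below DMSO. Of 3592 values of the span between TCDD and CH223191 for the 181 named genes, 3563 stayed on their side of the threshold, 14 lost and 15 gained the call, and 0 changed direction. Many of these genes were chosen for a large span or a small p in that same comparison, which favours keeping the call. Calls that need both steps were lost in 119 of 1095 values for the 55 named graded genes. SP8 lost it in 15 settings, ID2 in 14, IDI1 in 12 and NRARP in 10. For the 18 named genes with DMSO outside, 30 of 355 values were lost. Because the genes were not chosen alike, these rates of loss cannot be set against that of the span. Depth limits CYP1A2, whose CH223191 step rests on 1 to 15 reads a library.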

Other observations

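Some clock and nutrient genes added further cases in which the step with CH223191 carried most of the span. Of 17 tested circadian genes 8 were higher with CH223191 and 2 with TCDD (median log2 span -0.16), where all tested genes gave 18.1% and 19.0%. Of the 17, 1 was graded rising by test and 0 falling, against 0.705% and 1.47% of all tested genes. The 1 was DBP, with steps of -0.25 ± 0.07 with TCDD and 0.36 ± 0.07 with CH223191. DBP lost this call in 5 of 20 settings. TEF, a clock output factor, read 20.8 to 23.2 CPM with TCDD, 23.4 to 24.9 with DMSO and 31.3 to 32.7 with CH223191, and NR1D2, a clock repressor, 82.8 to 86.1, 84.7 to 88.3 and 104 to 111. TEF was graded by library and not by test. Of 18 FOXO factors and targets 8 were higher with CH223191 and 4 with TCDD, against the same 18.1% and 19.0% of all tested genes. SESN3, a stress-induced brake on mTORC1, read 39.9 to 42.4 CPM with TCDD, 41.0 to 45.6 with DMSO and 56.7 to 61.2 with CH223191. BCL6, a transcriptional repressor in the same list, instead passed the TCDD step alone, at 20.0 to 20.8 CPM against 13.8 to 16.0 and 12.8 to 14.3. XBP1, the transcription factor of the unfolded protein response, read 150 to 154, 143 to 153 and 260 to 261 CPM, whereas DNAJC3, a chaperone of the same response, read 150 to 153, 122 to 134 and 118 to 122. SREBF1, the regulator of lipid synthesis, read 94.0 to 99.9, 101 to 106 and 132 to 143 CPM, and its TCDD step of -0.10 ± 0.04 did not pass (edgeR adjusted p = 0.097). Like TEF, SREBF1 was graded by library and not by test.

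Most of the interferon-stimulated genes that differed were higher with CH223191. Of 21 tested, 10 were higher with CH223191 and 2 with TCDD (median log2 span -0.24), against 18.1% and 19.0% of all tested genes, and the 10 became 6 with DESeq2 and 4 among genes of at least 5 CPM in 3 libraries. By step, 10 rose and 0 fell with CH223191, and 1 rose and 0 fell with TCDD. Over all tested genes, 15.9% rose and 16.9% fell with CH223191, and 5.91% rose and 5.83% fell with TCDD. IFIT2, an antiviral protein, read 0.657 to 1.18 CPM with TCDD and 2.12 to 2.6 with CH223191. OAS2, an antiviral sensor and the gene whose TCDD step passed, was listed at 2.40, 1.57 and 1.19 CPM with TCDD, 0.229, 0.506 and 0.587 with DMSO, and 0.216, 0.250 and 0.092 with CH223191. Its TCDD step of 1.95 ± 0.31 passed and its CH223191 step of -1.18 ± 0.49 did not (edgeR adjusted p = 2.7e-05 and 0.062).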
